A study of Mus musculus with 33 samples.

Results

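Autosomal imprinted genes were followed by their histone marks in mouse embryonic stem cells (mESC), and in the embryoid bodies (EBs) grown from them, with and without Uhrf1. The set was a named list of 42 genes, and 41 of them, in 19 imprinted clusters, had a gene start among the 37273 starts of the GENCODE vM1 annotation of mm9; Kcnq1ot1 was not analysed here. Of the 41 genes, 36 were protein-coding and 5 were noncoding RNA genes (H19, Airn, Meg3, Rian and Mirg), 22 are known as paternally expressed and 19 are not. The ChIP-seq series held 33 samples, 17 WT and 16 Uhrf1 KO, and 25 of them came with a list of regions. WT cells were E14 mESC, and the Uhrf1 KO was a single mESC line in which the Uhrf1 gene is inactivated; both lines came from another laboratory. They were grown with LIF on gelatin or on plates coated with mouse embryonic fibroblasts, and EBs were formed in hanging drops and sampled at weeks 1, 2 and 3. The lists covered H3K4me3 and H3K27me3 at all 4 stages, H3K9me3, Oct4, Sox2 and Nanog in mESC, and Uhrf1 in WT mESC only. Each group was 1 library, so no comparison had a replicate check and no p-value is given, and intervals are Wilson 95% intervals that cover counting error over genes only. Genes of a cluster often share a region, so the counts of genes rest on fewer regions than genes.

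Imprinted genes are expressed mainly from the maternal or the paternal allele, and most lie in clusters steered by a differentially methylated region (DMR) that carries DNA methylation on a single allele. At germline DMRs the methylated allele usually carries H3K9me3 and the unmethylated allele H3K4me3, so both marks are found together when alleles are not separated, as here. H3K27me3, the mark of Polycomb repressive complex 2, covers silent alleles in several clusters, and the zinc finger protein Zfp57 binds methylated TGCCGC at DMRs and recruits Trim28 and Setdb1, which place H3K9me3. Uhrf1 guides the DNA methyltransferase Dnmt1 to newly replicated DNA. DNA methylation and the parental origin of the reads were not in the lists used here.

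The hexamer TGCCGC, searched on both strands with no other motif, lay in the window from 250 bases before to 50 bases after the start of 10 of the 41 genes (24.4%), compared with 10.4% of all 37268 starts with a full window and 13.6% of protein-coding starts. It lay at the annotated start of 6 of the 13 genes whose promoter is known to sit at a maternally methylated germline DMR (46.2%). The 10 genes with the hexamer were Zim1, Copg2, Peg10, Sgce, Plagl1, Slc22a2, Nnat, Meg3, Nap1l5 and Mcts2, and only Nap1l5 held 2 matches. The windows of Peg10 and Sgce overlap, since their starts lie 102 bp apart. Annotated gene starts need not be the DMR promoter. That of Snrpn lay 135.1 kb, and that of Mest 9.91 to 18.5 kb, from transcript starts with H3K4me3 in all 8 lists. The Usp29 start lay 230.7 kb from that of Peg3. The windows of the 41 genes were also richer in CpG, with a median observed over expected ratio of 0.62. It was 0.35 for all starts and 0.53 for protein-coding starts, and the part of CpG content in the hexamer's share was not tested. 3 of these promoters are printed because their chromatin is followed below, Nnat for joint H3K4me3 and H3K9me3 in Uhrf1 KO mESC and the others for H3K4me3 in mESC of both genotypes. Each reads 5′ to 3′ on the gene's strand in mm9, and capitals mark TGCCGC or its reverse complement GCGGCA. A match is a description of the letters and not a bound site.
Nnat, chr2:157385564-157385863, plus strand: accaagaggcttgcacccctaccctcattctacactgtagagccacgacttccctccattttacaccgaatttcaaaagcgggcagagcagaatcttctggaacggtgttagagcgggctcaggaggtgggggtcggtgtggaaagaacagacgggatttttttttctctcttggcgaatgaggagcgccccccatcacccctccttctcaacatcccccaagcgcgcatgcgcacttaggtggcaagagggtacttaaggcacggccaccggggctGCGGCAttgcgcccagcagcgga
Nap1l5, chr6:58857071-58857370, minus strand: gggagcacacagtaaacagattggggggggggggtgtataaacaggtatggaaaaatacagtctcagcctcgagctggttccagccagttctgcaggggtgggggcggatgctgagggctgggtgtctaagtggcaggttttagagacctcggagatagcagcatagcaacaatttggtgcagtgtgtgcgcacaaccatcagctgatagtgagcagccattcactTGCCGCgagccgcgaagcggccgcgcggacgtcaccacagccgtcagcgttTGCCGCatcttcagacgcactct
Mcts2, chr2:152512634-152512933, plus strand: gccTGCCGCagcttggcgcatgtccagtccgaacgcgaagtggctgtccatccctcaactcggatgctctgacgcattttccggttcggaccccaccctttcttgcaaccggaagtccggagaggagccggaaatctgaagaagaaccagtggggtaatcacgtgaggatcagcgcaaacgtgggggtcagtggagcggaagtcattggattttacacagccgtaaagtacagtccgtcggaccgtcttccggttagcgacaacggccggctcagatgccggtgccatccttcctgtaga

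A gene was called for H3K4me3 where a region of the list lay within 2 kb of its start, and for the other targets within 5 kb. H3K4me3, the mark of active and poised promoters, was called at 27 of the 41 genes in WT mESC (65.9%, interval 50.5 to 78.4%) and at 25 in Uhrf1 KO mESC (61.0%, 45.7 to 74.3%). The background was 47.9% of all starts in WT and 42.9% in Uhrf1 KO, and 63.2% and 57.0% of protein-coding starts, which lie inside both intervals. At EB week 1 the counts were 31 in WT and 25 in Uhrf1 KO, against a background of 45.3% and 41.1%. They were 33 and 29 at week 2 (background 50% and 48.5%) and 31 and 32 at week 3 (background 49.7% and 49.8%). The WT count was thus the higher at the first 3 stages and the lower by 1 gene at week 3.

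**Figure D1:**
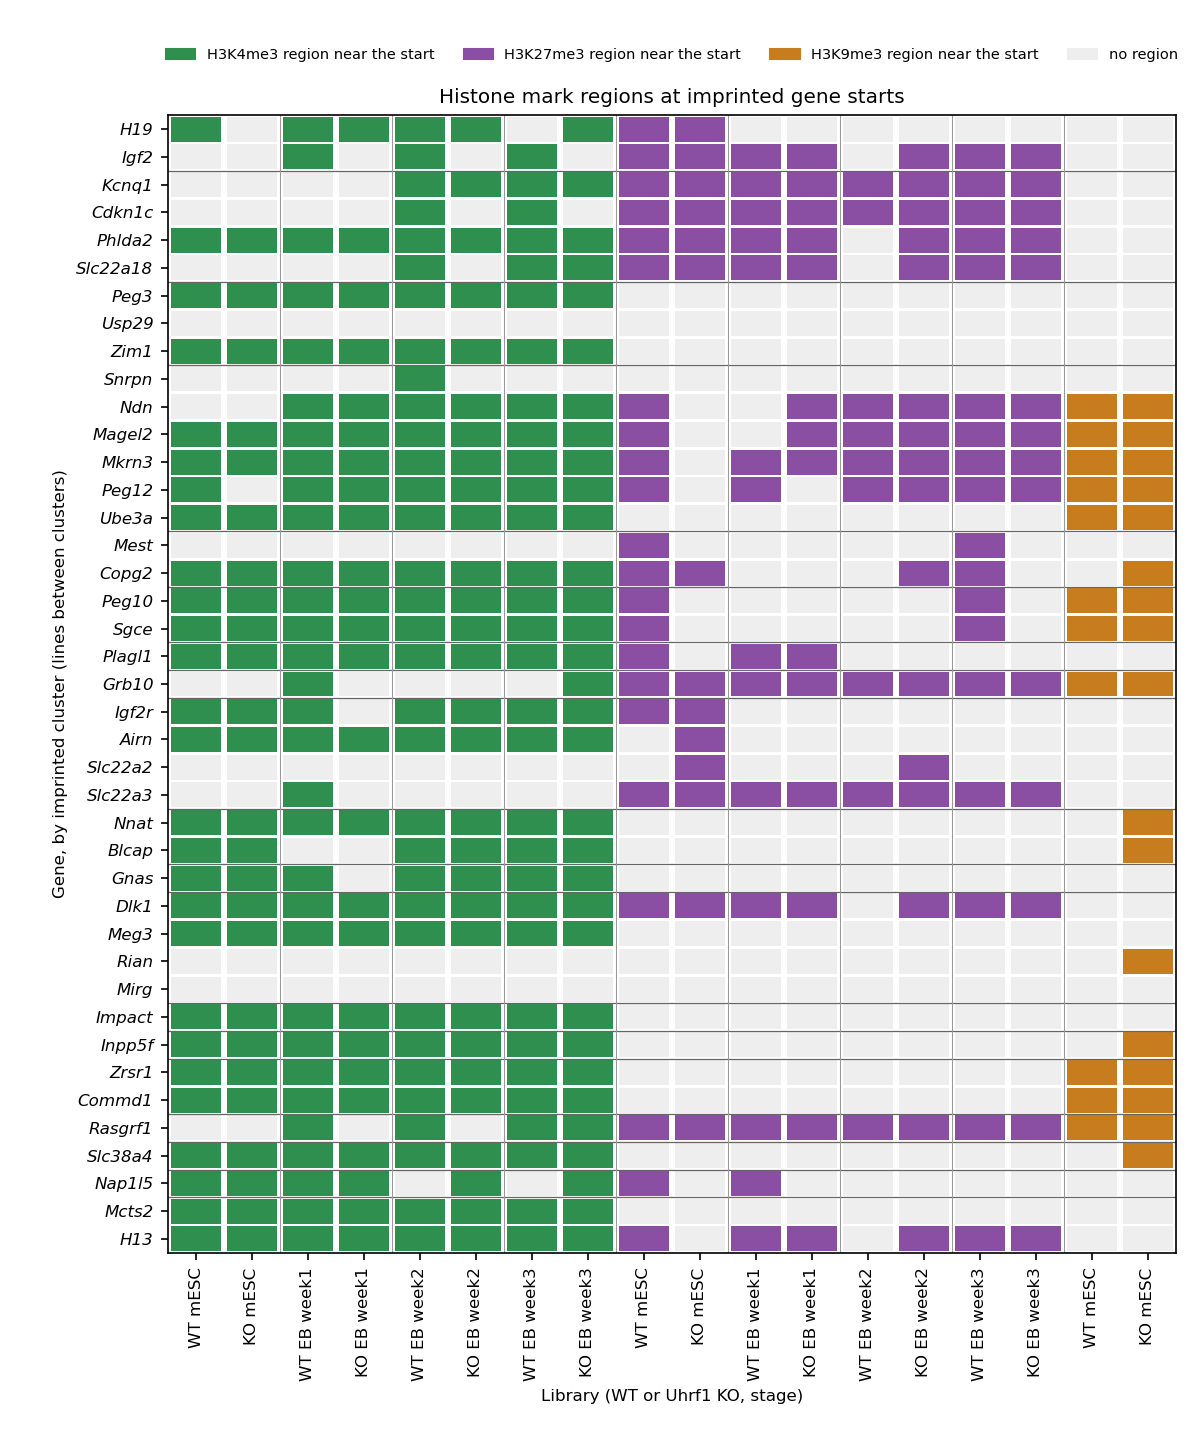
Calls for each of the 41 imprinted genes (rows, grouped by cluster) in the 18 histone mark lists (columns, WT and Uhrf1 KO side by side). Filled cells mark a region near the gene start, within 2 kb for H3K4me3 (green) and 5 kb for H3K27me3 (purple) and H3K9me3 (orange). 21 genes carried H3K4me3 in all 8 lists, and Ndn, Magel2, Mkrn3 and Peg12 had H3K27me3 in WT but not in Uhrf1 KO mESC.

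A core of 21 genes carried H3K4me3 in all 8 lists, compared with 35.6% of all starts. They included Peg3, a zinc finger gene, the noncoding RNA genes Meg3 and Airn, Plagl1, Nnat, Impact, Mcts2 and H13, and the pairs Peg10 and Sgce, and Zrsr1 and Commd1, each of which shared its regions. The Peg10 and Sgce starts lie 102 bp apart and used the same H3K4me3 regions throughout. Zrsr1 lies inside Commd1, Mcts2 inside H13 and Nnat inside Blcap. H3K4me3 was called in no list at 5 genes, Usp29, Mest, Slc22a2, Rian and Mirg, compared with 41.4% of all starts. The annotated Usp29 start lay 230.7 kb from that of Peg3, so the call describes that start only.

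Mest and Snrpn have other annotated transcripts that start far from the gene start. Mest transcript starts 9.91 to 18.5 kb from the gene start, with a group at 14.5 kb, carried H3K4me3 in all 8 lists. The region at these starts was 15.6 kb long with a mean of 17.0 reads per bin in WT mESC and 14.3 kb with 11.6 in Uhrf1 KO mESC. The nearest H3K4me3 region to the Mest gene start was 5.15 kb away in both mESC lists. The Snrpn gene start was called only in WT EBs at week 2, but its transcript start 135.1 kb away was called in all 8 lists. The Snrpn region there measured 9.1 kb with a mean of 34.4 reads per bin in WT mESC and 7.8 kb with 33.0 in Uhrf1 KO mESC. Both genotypes therefore held the mark at these transcript starts.

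Of the 27 genes with H3K4me3 in WT mESC, 25 also had it in Uhrf1 KO mESC (92.6%, interval 76.6 to 97.9%), compared with 86.2% of all starts called in WT. Of the 14 genes without it in WT mESC, 0 were called in Uhrf1 KO, compared with 3% of starts. The WT-only genes were H19 and Peg12. At H19, the maternally expressed noncoding RNA gene of the Igf2 cluster, WT mESC had a region of 6.5 kb with a mean of 15.7 reads per bin, and the nearest Uhrf1 KO region was 41.7 kb away. H19 regained a listed region in Uhrf1 KO EBs, of 8.4 kb, 9.45 kb and 6 kb at weeks 1, 2 and 3, whereas WT EBs had 7.6 kb, 0.8 kb and none. At Peg12, a gene at the end of the Snrpn cluster, the WT mESC region was 2.6 kb with a mean of 12.1, the nearest Uhrf1 KO region was 39.9 kb away, and all 6 EB lists held a region of 2.4 to 6 kb.

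In EBs, 25 of 31 genes with H3K4me3 in WT also had it in Uhrf1 KO at week 1 (80.6%, interval 63.7 to 90.8%; background 87.9%). At week 2 they were 28 of 33 (84.8%, 69.1 to 93.3%; background 91.5%) and at week 3 they were 29 of 31 (93.5%, 79.3 to 98.2%; background 95%). The WT-only genes were Igf2, Grb10, Igf2r, Slc22a3, Gnas and Rasgrf1 at week 1, Igf2, Cdkn1c, Slc22a18, Snrpn and Rasgrf1 at week 2, and Igf2 and Cdkn1c at week 3. Nap1l5 was listed in Uhrf1 KO only at week 2, and H19, Grb10 and Nap1l5 at week 3, 3 of the 10 genes without a WT call compared with 5.13% of starts.

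Several of these calls sat at the edge of the 2 kb window. Igf2, which encodes a fetal growth factor, had WT regions of 14.4, 12.8 and 12.4 kb at weeks 1 to 3, while the nearest Uhrf1 KO regions were 84.6, 3.02 and 2.72 kb from the start. Cdkn1c, an inhibitor of cyclin-dependent kinases, had WT regions of 4.8 and 4.4 kb at weeks 2 and 3 and Uhrf1 KO regions 2.5 and 2.15 kb away. The gene start of Gnas, the stimulatory G protein subunit gene, lay 2.23 kb from a Uhrf1 KO region at week 1. Other Gnas transcript starts, 0.936 and 43.2 kb from it, carried H3K4me3 in all 8 lists. The Grb10 start lay 2.09 kb from a WT region in mESC. With a 5 kb window, chosen after these distances were seen, the kept genes were 25 of 28 in mESC (background 86.3%), 27 of 32 at week 1 (88.4%), 30 of 33 at week 2 (90.9%) and 31 of 31 at week 3 (95%). Under that window H19, Peg12 and Grb10 were WT only in mESC, Igf2, Grb10, Igf2r, Slc22a3 and Rasgrf1 at week 1, and Slc22a18, Snrpn and Rasgrf1 at week 2. At Rasgrf1 the nearest Uhrf1 KO regions at weeks 1 and 2 were 23.9 and 40.8 kb away.

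**Figure D2:**
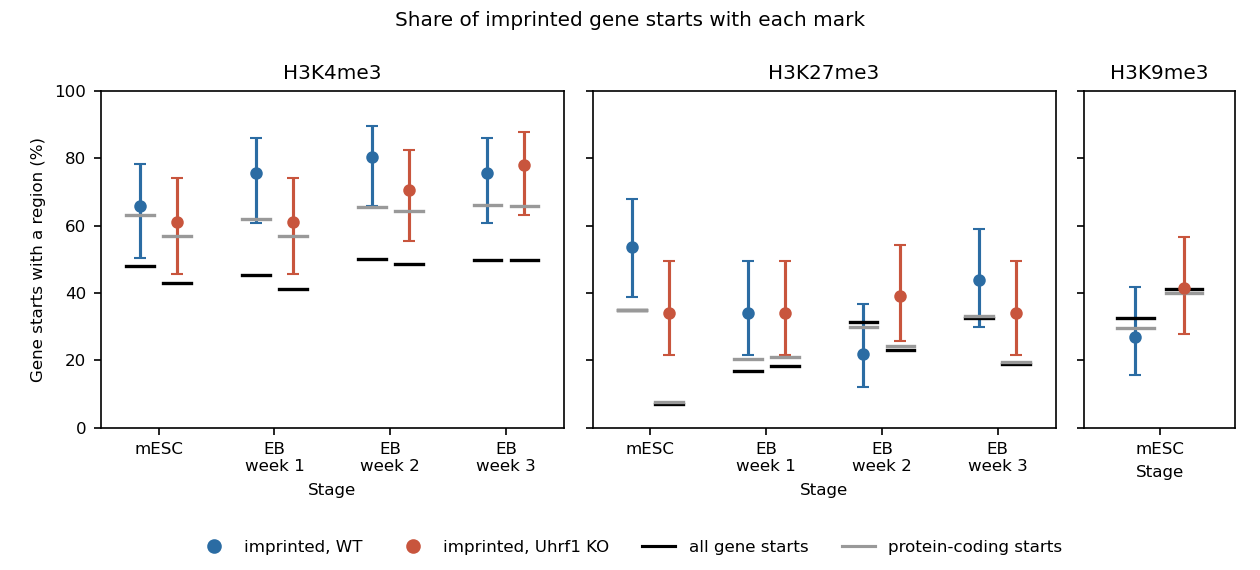
Share of gene starts with a region (vertical axis, %) by stage for H3K4me3, H3K27me3 and H3K9me3; points are the 41 imprinted genes in WT (blue) and Uhrf1 KO (red) with Wilson 95% intervals, black bars all starts and grey bars protein-coding starts. In Uhrf1 KO mESC the H3K27me3 share was 34.1% for imprinted genes and 7.02% for all starts, whereas H3K4me3 shares in mESC lay near those of protein-coding starts.

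In mESC the H3K4me3 regions at several imprinted genes were longer in the Uhrf1 KO list. WT and Uhrf1 KO were binned alike in mESC (1300 bp) and at week 3 (400 bp), so lengths were compared there, using the longest region near each start. Over the 25 genes called in both mESC lists, the median log2 ratio of Uhrf1 KO to WT length was 0.32, compared with 0.00 over the 15401 starts called in both. Longer by 2-fold or more were 8 of the 25 genes, compared with 12.5% of starts, and shorter by 2-fold or more were 2 genes, compared with 13.1%. Counting each pair of regions once gave a median of 0.37 over 22 pairs.

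The 8 longer genes were Meg3, Airn, Impact, Slc38a4, Mkrn3, Zim1, Mcts2 and H13. Meg3, the maternally expressed noncoding RNA gene of the Dlk1 cluster, had 3.9 kb in WT and 28.6 kb in Uhrf1 KO, with mean counts per bin of 37.0 and 17.3. Airn, the noncoding RNA that silences Igf2r on the paternal allele, had 2.6 kb and 11.7 kb, with mean counts of 17.5 and 7.92. Impact, a regulator of translation under stress, had 10.4 kb and 41.6 kb, with mean counts of 18.0 and 9.79. Slc38a4, an amino acid transporter gene, had 15.6 kb and 40.3 kb, with mean counts of 20.5 and 8.73. In each of these 4 genes the longer Uhrf1 KO region had the lower mean count.

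Mcts2 and H13 had separate WT regions of 15.6 kb and 5.2 kb and a single Uhrf1 KO region of 89.7 kb with a mean count of 6.56. The same genes had separate regions of 15.2 kb and 6.8 kb in Uhrf1 KO EBs at week 3. Mkrn3 had 9.1 kb and 19.5 kb, and Zim1 had 3.9 kb and 7.8 kb. The 2 shorter genes were Phlda2, a placental growth regulator, with 9.1 kb in WT and 2.6 kb in Uhrf1 KO, and Magel2, with 7.8 kb and 2.6 kb. At week 3 the median log2 ratio over 29 genes was 0.17 and over all 17583 starts 0.00, with 4 genes at least 2-fold longer (Phlda2, Mkrn3, Plagl1 and Dlk1; background 7.25%) and 3 at least 2-fold shorter (Kcnq1, Airn and Rasgrf1; background 7.37%). Mkrn3 was thus the gene at least 2-fold longer at both stages, and Airn went from longer in mESC to shorter at week 3, where it had 17.6 kb in WT and 6 kb in Uhrf1 KO.

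**Figure D3:**
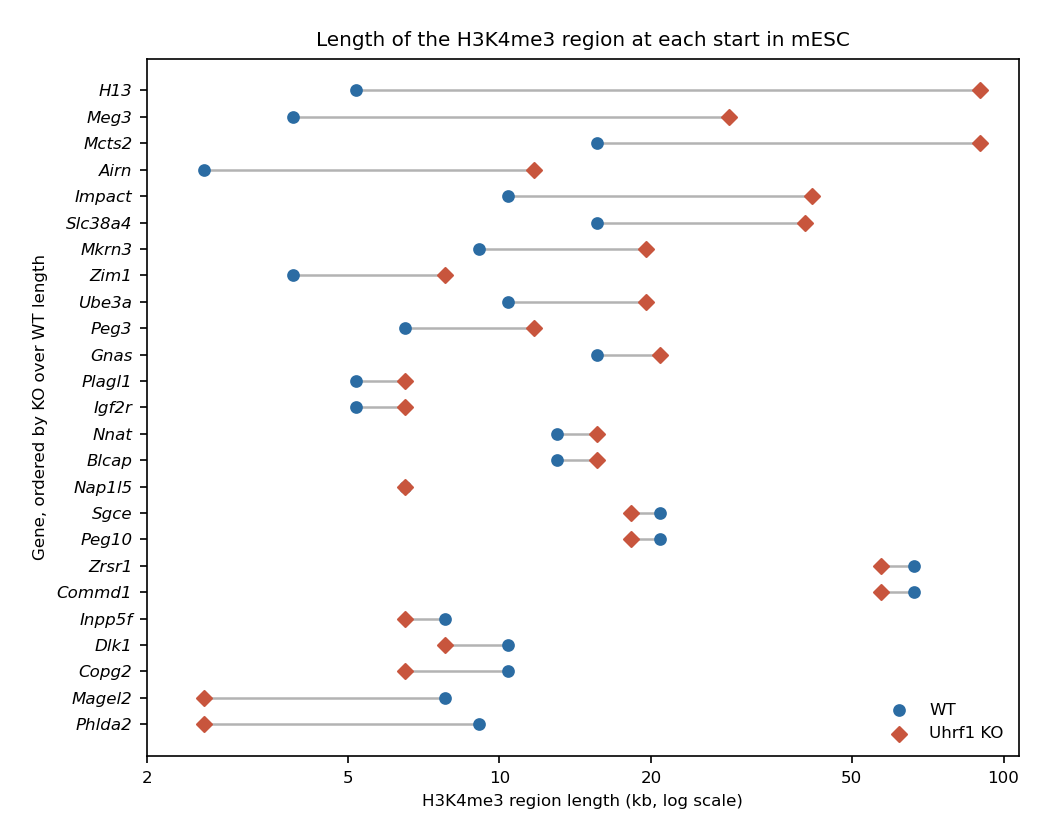
Length of the H3K4me3 region at the start (horizontal axis, kb, log scale) of the 25 imprinted genes called in both WT (blue circles) and Uhrf1 KO mESC (red diamonds), ordered by their ratio. Uhrf1 KO regions were longer at 15 genes, shorter at 9 and equal at Nap1l5, and reached 89.7 kb at Mcts2 and H13.

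H3K27me3 was called at 22 of the 41 genes in WT mESC (53.7%, interval 38.7 to 67.9%; background 34.8%) and at 14 in Uhrf1 KO mESC (34.1%, 21.6 to 49.5%; background 7.02%). The Uhrf1 KO mESC list was short, with 722 regions compared with 8161 in WT, and its regions had a median of 0.914 reads per 1500 bp bin compared with 4.94 per 1800 bp bin in WT. Whether these counts were scaled to depth is not stated. At week 1 the counts of genes were 14 and 14 (background 16.7% in WT and 18.4% in Uhrf1 KO), at week 2 they were 9 and 16 (31.5% and 22.9%), and at week 3 they were 18 and 14 (32.5% and 18.9%). Only WT at week 2 gave a share below its background, with 22.0% (12 to 36.7%).

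Of the 22 genes with H3K27me3 in WT mESC, 12 also had it in Uhrf1 KO mESC (54.5%, interval 34.7 to 73.1%), compared with 14.8% of all starts called in WT and 15.5% of protein-coding starts. These 12 genes rested on 8 WT regions and the 14 Uhrf1 KO genes on 7 Uhrf1 KO regions. Among the 19 genes without it in WT, Airn and Slc22a2 were called in Uhrf1 KO, compared with 2.87% of starts. The 10 WT-only genes rested on 6 WT regions: the 795.6 kb region over Ndn, Magel2, Mkrn3 and Peg12, the region beside Peg10 and Sgce, and those at Mest, Plagl1, Nap1l5 and H13.

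The kept calls are also given by parental expression. Of the 12 paternally expressed genes with H3K27me3 in WT mESC, 3 (Igf2, Dlk1 and Rasgrf1) had it in Uhrf1 KO (25%, interval 8.89 to 53.2%), an interval that holds the 14.8% of all starts. Of the 10 others 9 had it, all but H13 (90%, 59.6 to 98.2%), and of these 9 Igf2r and Slc22a3 rested on a region with a mean of 0.245 reads per bin. Both intervals count genes that share regions. The WT-only Ndn, Magel2, Mkrn3 and Peg12 lay on a single region, as did the kept Kcnq1, Cdkn1c, Phlda2 and Slc22a18. H19 and Igf2 shared a region although they fall in different groups. The intervals are therefore too narrow to compare the groups. The difference between these groups was not tested, and in EBs the kept genes were 5 of 7 and 7 of 7 at week 1, 5 of 5 and 4 of 4 at week 2, and 7 of 10 and 7 of 8 at week 3, paternally expressed genes first. Of the 13 genes with a promoter at a maternal germline DMR, 5 were called in WT (Mest, Peg10, Sgce, Plagl1 and Nap1l5) and 0 of those 5 in Uhrf1 KO (interval 0 to 43.4%), where Airn alone was called. Of the 14 Uhrf1 KO genes, 10 lay in the H19 and Igf2, Kcnq1 and Igf2r clusters on 3 regions.

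The Kcnq1 cluster, which holds the potassium channel gene Kcnq1, Cdkn1c, the transporter gene Slc22a18 and Phlda2, was covered by 1 region in each mESC list. It was 433.8 kb long with a mean of 14.2 reads per bin in WT, at the 98.8th percentile of its list. In Uhrf1 KO it was 466.5 kb long with a mean of 7.11, at the 97.5th percentile. The H19 and Igf2 region was 432 kb in WT with a mean of 10.5 and 994.5 kb in Uhrf1 KO with a mean of 2.61. Grb10, an adaptor that restrains insulin receptor signalling, had 160.2 kb with a mean of 17.4 in WT and 361.5 kb with a mean of 2.20 in Uhrf1 KO. These regions ranked at the 80.7th percentile or above in both lists.

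The remaining Uhrf1 KO mESC regions ranged widely in their mean count. Over the Igf2r cluster, WT mESC had a region of 113.4 kb at Igf2r (mean 5.40) and another of 97.2 kb at Slc22a3 (mean 5.52), and Airn and Slc22a2 lay outside both. Uhrf1 KO mESC had a single region of 564 kb over all 4 genes with a mean of 0.245 reads per bin, at the 18.7th percentile of its list. Rasgrf1 had 309.6 kb with a mean of 9.17 in WT and 735 kb with a mean of 0.135 in Uhrf1 KO, and Dlk1, a Notch-related growth regulator, had 345.6 kb with 6.02 and 558 kb with 1.00, at the 54th percentile in Uhrf1 KO. Copg2, a coatomer subunit gene, had 154.8 kb with 9.34 and 136.5 kb with 2.53, at the 84.9th percentile in Uhrf1 KO.

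The lowest mean count in the WT mESC list was 3.04. With Uhrf1 KO regions below that left out, a minimum chosen after the data were seen, the 4 genes of the Kcnq1 cluster remained of the 14 (9.76% of the 41 genes, compared with 0.625% of all starts). The kept genes were then 4 of 22 (18.2%), compared with 1.56% of starts called in WT. That minimum is per bin, and WT bins were 1800 bp and Uhrf1 KO bins 1500 bp. Set per base it came to 2.53 reads in a Uhrf1 KO bin, and 6 genes remained, H19 and Igf2 besides the Kcnq1 cluster (14.6%, compared with 0.91% of all starts). Of the 22 genes called in WT these were 27.3%, compared with 2.22% of starts. The same minimum at week 3, 6.34, left Grb10 alone of the 14 genes, compared with 3.43% of starts, and 1 of 18 kept, compared with 9.62%.

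**Figure D4:**
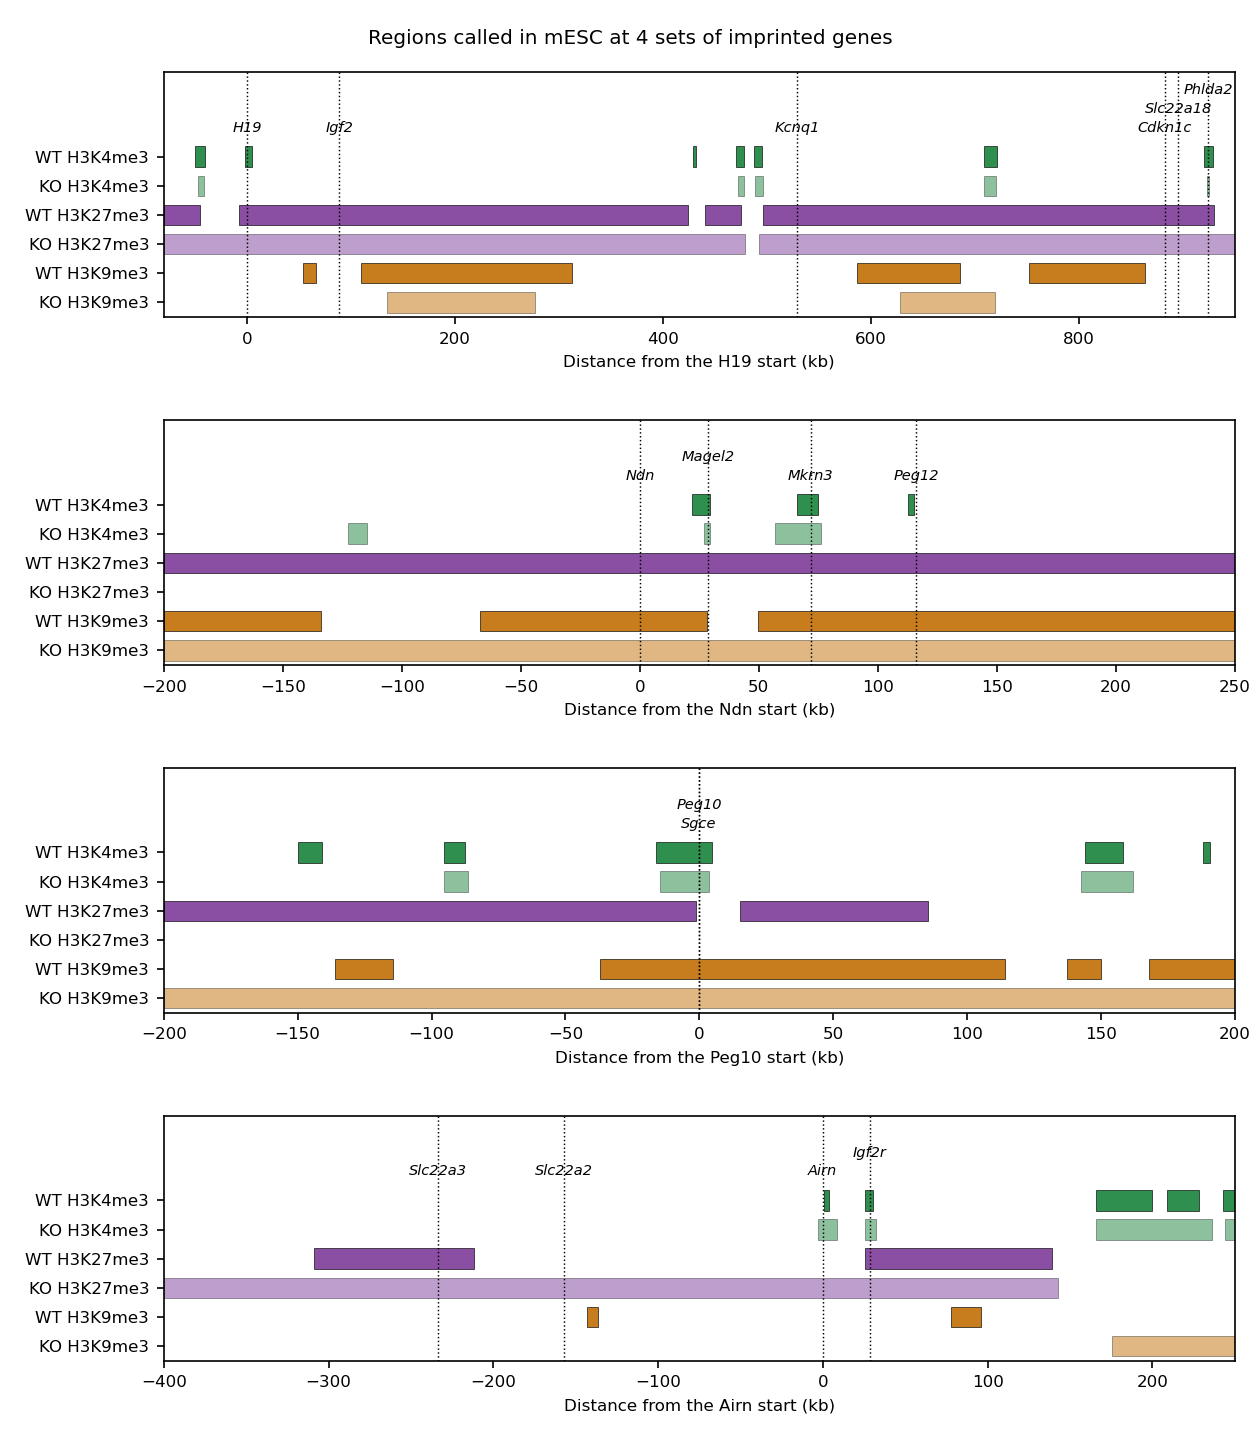
Regions called in mESC along 4 stretches with imprinted genes, drawn as bars against the distance (kb) from the H19, Ndn, Peg10 or Airn start, with WT in full and Uhrf1 KO (KO) in pale colour. Dotted lines mark gene starts, and bars are cut at the panel edge. H3K27me3 was listed in both genotypes over H19 to Phlda2, in WT only at Ndn to Peg12 and beside Peg10, and over Airn and Slc22a2 in Uhrf1 KO only.

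In the Snrpn cluster, Snrpn and Ube3a had H3K27me3 in no list, and the other 4 genes had it in both genotypes at weeks 2 and 3. At week 2 a single region covered Ndn, Magel2, Mkrn3 and Peg12 in WT (511.2 kb, mean 7.80) and in Uhrf1 KO (324 kb, mean 6.61), and at week 3 the lengths were 333 kb and 207 kb with means of 10.1 and 5.12. At week 1 Mkrn3 and Peg12 were called in WT and Ndn, Magel2 and Mkrn3 in Uhrf1 KO. The nearest Uhrf1 KO mESC region to Ndn was 11218.8 kb away. These 4 genes were therefore called in both late EB pairs and in WT but not Uhrf1 KO mESC.

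Of the genes with H3K27me3 in WT EBs, 12 of 14 at week 1 (85.7%, interval 60.1 to 96.0%; background 72.5%), 9 of 9 at week 2 (100%, 70.1 to 100%; background 44.3%) and 14 of 18 at week 3 (77.8%, 54.8 to 91.0%; background 48.6%) also had it in Uhrf1 KO. Uhrf1 KO added 2 of 27 genes at week 1 (Ndn and Magel2; background 7.61%), 7 of 32 at week 2 (Igf2, Phlda2, Slc22a18, Copg2, Slc22a2, Dlk1 and H13; background 13%) and 0 of 23 at week 3 (background 4.57%). The WT-only genes at week 3 were Mest, Copg2, Peg10 and Sgce. Kcnq1, Cdkn1c, Grb10, Slc22a3 and Rasgrf1 had H3K27me3 in all 8 lists, compared with 2.25% of starts, and 17 genes had it in none, compared with 44.2%. The Uhrf1 KO mESC calls at Slc22a3, Rasgrf1 and Grb10 rested on means of 0.245, 0.135 and 2.20 reads per bin. Those lie below the mESC minimum given above, per bin or per base, which only Kcnq1 and Cdkn1c of the 5 genes passed. Grb10 was listed with means of 24.1 and 22.7 at week 1, 16.4 and 14.2 at week 2 and 18.9 and 9.70 at week 3, WT first.

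H3K4me3 and H3K27me3 together, the bivalent state, were called at 13 genes in WT mESC (background 14%) and at 5 in Uhrf1 KO mESC (background 3.38%). The 4 genes called in both, Phlda2, Copg2, Igf2r and Dlk1, were 30.8% of the 13 (interval 12.7 to 57.6%), compared with 15.4% of all starts bivalent in WT, a share inside that interval. Their Uhrf1 KO H3K27me3 regions had means of 2.527 at Copg2, 0.245 at Igf2r, which shared its region with Airn, and 1.00 at Dlk1. With the minimum mean count given above, per bin or per base, Phlda2 alone of the 4 kept H3K27me3. Airn was called in Uhrf1 KO only, 1 of 28 compared with 1.43% of starts, and H19, Magel2, Mkrn3, Peg12, Peg10, Sgce, Plagl1, Nap1l5 and H13 were called in WT only. At 7 of these 9 WT-only genes H3K4me3 stayed listed in Uhrf1 KO, the exceptions being H19, which kept H3K27me3, and Peg12. At week 3 the counts were 15 in WT (background 14.7%) and 11 in Uhrf1 KO (background 8.8%). WT-only genes at week 3 were Igf2, Cdkn1c, Copg2, Peg10 and Sgce.

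H3K9me3, the mark of heterochromatin and of methylated DMR alleles, was called at 11 genes in WT mESC (26.8%, interval 15.7 to 41.9%; background 32.5%) and at 17 in Uhrf1 KO mESC (41.5%, 27.8 to 56.6%; background 41.2%). All 11 WT genes were also called in Uhrf1 KO (100%, 74.1 to 100%; background 75.4%), and 6 of the other 30 were called in Uhrf1 KO (20%, 9.51 to 37.3%; background 24.8%). The shared genes were Ndn, Magel2, Mkrn3, Peg12 and Ube3a of the Snrpn cluster, Peg10 and Sgce, Grb10, Zrsr1 and Commd1, and Rasgrf1. The genes with a call in Uhrf1 KO only were Copg2, Nnat, Blcap, Rian, Inpp5f and Slc38a4. H3K9me3 regions were long, so a call says only that the start lay in or near a broad region: at the 41 genes they ran from 28.8 kb at Rasgrf1 in WT to 15696 kb at Zrsr1 and Commd1 in Uhrf1 KO.

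H3K9me3 and H3K4me3 were both called at 8 genes in WT mESC (19.5%, interval 10.2 to 34.0%; background 10.9%) and at 12 in Uhrf1 KO mESC (29.3%, 17.6 to 44.5%; background 18.4%). Magel2, Mkrn3, Ube3a, Peg10, Sgce, Zrsr1 and Commd1 had both marks in both genotypes, Peg12 in WT only, and Copg2, Nnat, Blcap, Inpp5f and Slc38a4 in Uhrf1 KO only. The shared genes were 7 of 8 (87.5%, interval 52.9 to 97.8%; background 63.2%) and the Uhrf1 KO-only genes 5 of 33 (15.2%, 6.65 to 30.9%; background 12.9%), so both background shares lay inside the intervals. The H3K4me3 region lay wholly within H3K9me3 regions at 7 of the 8 WT genes and at 10 of the 12 Uhrf1 KO genes. It was covered to 83.3% at Magel2 in WT and to 96.2% at Nnat and Blcap in Uhrf1 KO.

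Peg10, a retrotransposon-derived gene, and Sgce, a sarcoglycan gene, share a DMR promoter. There the H3K4me3 region was 20.8 kb with a mean of 14.3 in WT mESC and 18.2 kb with 11.8 in Uhrf1 KO mESC, and the H3K9me3 region was 151.2 kb with 13.9 and 691.2 kb with 10.3. Their EB H3K4me3 regions ran from 12.6 to 24.8 kb. Zrsr1, a splicing factor gene derived by retrotransposition, and Commd1 shared an H3K4me3 region of 66.3 kb with a mean of 27.2 in WT and 57.2 kb with 25.1 in Uhrf1 KO. Ube3a, a ubiquitin ligase gene, had 10.4 kb with 31.7 and 19.5 kb with 18.6. H3K4me3 was therefore listed at these promoters in both genotypes, inside H3K9me3 regions in both.

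Nnat, a small membrane protein gene, and its host gene Blcap had the H3K9me3 call in Uhrf1 KO mESC from a region of 41.4 kb with a mean of 12.9 reads per bin, at the 84.5th percentile of its list. It was the shortest of the regions called in Uhrf1 KO only. Their shared H3K4me3 region measured 13 kb with a mean of 31.7 in WT and 15.6 kb with 18.0 in Uhrf1 KO. Copg2 had an H3K9me3 region of 250.2 kb (mean 10.8), Inpp5f, a phosphoinositide phosphatase gene, one of 293.4 kb (mean 10.3) and Slc38a4 one of 979.2 kb (mean 10.7). Rian, a noncoding RNA gene of the Dlk1 cluster, had one of 82.8 kb (mean 11.6) and no H3K4me3 in any list. The lowest mean in the Uhrf1 KO list was 9.46, and H3K9me3 regions in WT had a median of 15.0. At the Snrpn transcript start 135.1 kb from its gene start, H3K9me3 was also listed in Uhrf1 KO only. Other transcript starts differed. Rian starts 30.3 and 42.2 kb from its gene start had H3K9me3 in both genotypes, and an Airn start 74.6 kb away in WT only. With any annotated transcript start, H3K9me3 was called at 13 genes in WT mESC and 18 in Uhrf1 KO mESC, and 12 were shared.

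The Snrpn cluster genes Ndn and Magel2, which encode MAGE family proteins, had an H3K9me3 region of 95.4 kb (mean 14.9) in WT, and Mkrn3 and Peg12 another of 288 kb (mean 15.2). In Uhrf1 KO a single region of 846 kb with a mean of 9.73, at the 0.577th percentile of its list, covered all 4. The WT H3K27me3 region over the same genes spanned 795.6 kb, so these starts carried both repressive marks in the WT lists. In Uhrf1 KO mESC they had H3K9me3 without H3K27me3, and Magel2 and Mkrn3 also had H3K4me3. Ndn had no H3K4me3 in mESC of either genotype, and regions of 2.8 to 8.4 kb in all 6 EB lists.

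Uhrf1 windows of 10 kb, the series' enriched windows in WT mESC, lay within 5 kb of 2 of the 41 genes (4.88%, interval 1.35 to 16.1%), compared with 8.04% of all starts. Mest, a hydrolase-like gene of the maternal DMR list, had its gene start inside the window chr6:30670001-30680000. That start had H3K4me3 in no list. The Mest transcript starts with H3K4me3 in all 8 lists lay outside the window, from chr6:30683454 on. Grb10 had its start at chr11:11938686 and the window chr11:11940001-11950000 began at -1315 bp, upstream of it. A window lay within the gene body of 6 genes (Kcnq1, Ube3a, Mest, Slc22a2, Rian and Rasgrf1), 14.6% compared with 9.23% of all genes. The nearest window was a median of 136.8 kb from the 41 starts and 162.7 kb from all starts.

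Summits of Oct4, Sox2 and Nanog, core factors of the pluripotent state, were counted within 5 kb of the starts. In WT mESC, Oct4 was at 2 genes (background 7.62%), Sox2 at 2 (background 5.75%) and Nanog at 0 (background 1.35%). In Uhrf1 KO mESC, Oct4 was at 0 (background 0.233%), Sox2 at 15 (background 24.7%) and Nanog at 1 (background 5.52%). The Uhrf1 KO Sox2 list held 20755 summits compared with 5190 in WT.

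H19 and Gnas were the genes with WT summits, and each held them at nearly a single position. At H19, whose imprinting control region lies upstream of the start, the WT Oct4 summit was at -3277 bp with a height of 44 reads, the WT Sox2 summit at -3268 bp with 21 reads and the Uhrf1 KO Sox2 summit at -3287 bp with 36 reads. At Gnas the WT Oct4 summit was at 3788 bp with 67 reads, the Sox2 summits at 3735 bp in WT and 3764 bp in Uhrf1 KO with 32 and 39 reads, and the Uhrf1 KO Nanog summit at 3773 bp with 13 reads. The other 13 genes had a Sox2 summit in Uhrf1 KO only, with heights of 9 to 26 reads: Cdkn1c, Peg3, Mkrn3, Peg12, Ube3a, Peg10, Sgce, Grb10, Blcap, Meg3, Impact, Slc38a4 and H13. 5 of these summits lay close to the start itself, at -353 bp at Cdkn1c, -45 bp at Mkrn3, 146 bp at Ube3a, -75 bp at Peg10 (the summit that Sgce shares) and 216 bp at H13.

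A second list of 19 imprinted genes that are not among the 41 was read in the same way, and 17 of them had a start. H3K4me3 was called at 10 of the 17 genes in each of the mESC lists (background 47.9% in WT and 42.9% in Uhrf1 KO). At week 3 it was called at 14 in WT and 11 in Uhrf1 KO (background 49.7% and 49.8%), with Ascl2, Ddc and Dio3 in WT only. H3K27me3 was called at 11 genes in WT mESC and 9 in Uhrf1 KO mESC (background 34.8% and 7.02%). The 8 shared genes (Osbpl5, Cd81, Ascl2, Klf14, Sfmbt2, Th, Ins2 and Dio3) were 72.7% of the 11 (interval 43.4 to 90.3%; background 14.8%). Th and Ins2 lie beside Igf2, and Osbpl5, Cd81 and Ascl2 lie beside the Kcnq1 cluster, so their calls may rest on regions already counted above. H3K9me3 was called at 6 of the 17 genes in WT mESC and 8 in Uhrf1 KO mESC (background 32.5% and 41.2%).

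Among 5 pluripotent cell markers, H3K4me3 was called at 4 in both mESC lists (background 47.9% in WT and 42.9% in Uhrf1 KO). It was called at 2 in WT and 0 in Uhrf1 KO at week 1 (45.3% and 41.1%), at 3 and 4 at week 2 (50% and 48.5%), and at 4 in both lists at week 3 (49.7% and 49.8%). Among 6 markers of differentiated EB cells, H3K27me3 was called at 6 in WT mESC and 3 in Uhrf1 KO mESC (background 34.8% and 7.02%). For these markers H3K4me3 was called at 4 in WT mESC and 2 in Uhrf1 KO mESC, and at 5 in both lists at week 3. The Uhrf1 start itself carried H3K4me3 in all 8 lists, Uhrf1 KO included, and the lists hold no expression value that would check the knockout. In EBs, more cells of a type and more of a mark per cell cannot be told apart.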

How the data were processed

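ChIP-seq reads were mapped by the authors to mm9 with Bowtie2 2.1.0 (the submitters' processing notes). They called histone regions with RSEG against input and factor summits with MACS, 1 list per library without pooling, and Uhrf1 windows of 10 kb by enrichment over input, deposited with no value. Each deposited histone region has a signal (reads per bin, averaged over the region) and a score that is larger for regions of more bins, and each deposited summit a signal, its height in reads. Bins were 350 to 1800 bp and differed between genotypes for H3K4me3 at weeks 1 and 2 and for H3K27me3 at week 1 and in mESC. Library read totals and the 8 inputs were not analysed.

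Coordinates fitted NCBIM37 (0 of 523 pairs of list and chromosome ran past its end), which also gave the sequences and GENCODE vM1 starts. A gene was called where a region lay within 2 kb (H3K4me3) or 5 kb of its start, with at least 1 bp of overlap, using Python 3.11, numpy 2.4.6 and scipy 1.17.1; plots used matplotlib 3.10.9. The overlap code made 0 errors in 60000 calls on simulated regions. Genes given with values were those with joint H3K4me3 and H3K9me3, those whose H3K4me3 call differed between WT and Uhrf1 KO in mESC or at 2 or more stages, and those with a Uhrf1 window or factor summit, besides the members of regions described. The members and lists were chosen with earlier results of these data known. Alternatives were the start itself inside a region, regions above the median score of their list, any annotated transcript start and 3 kinds added after the data were seen. Authors' read-count classes of promoters were not rebuilt.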

Additional observations from a re-analysis of the deposited data

Results flagged for a closer look

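Differences between Uhrf1 KO and WT in the number of imprinted genes called went in opposite directions at different stages. For H3K4me3, Uhrf1 KO minus WT was -2 genes for mESC, -6 and -4 for EBs of weeks 1 and 2, and 1 for those of week 3. For H3K27me3 it was -8 genes in mESC, 7 at week 2 and -4 at week 3, with equal counts at week 1. The background of all starts gave H3K4me3 differences of -1879 for the mESC pair, then -1555, -544 and 34 for successive EB pairs. These have the same signs as the imprinted genes. Background H3K27me3 differences were -10363 for the mESC pair, then 646, -3214 and -5065 for successive EB pairs. The imprinted genes thus had the opposite sign to the background for H3K27me3 at week 2. When only the higher-scoring part of each list was used, H3K4me3 at week 1 was called at 21 imprinted genes in WT and 21 in Uhrf1 KO. The differences between stages were not tested, since each value is 1 library minus another. Bins differed between genotypes at weeks 1 and 2 for H3K4me3 and in mESC and at week 1 for H3K27me3, and their part in the differences was not tested.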

How the results depend on the processing

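Over 31 results and 110 alternatives, 97 alternative values stayed within 1.5 times the value reported (or, for the length ratio, within 1 SD), 13 moved further and 0 reversed. With only regions above the median score of their list, H3K4me3 was called at 13 genes in WT mESC and 15 in Uhrf1 KO mESC, was shared by 11 in mESC and by 19 at week 3, and joint H3K4me3 and H3K9me3 was called at 5 genes in WT and 7 in Uhrf1 KO mESC; the order of WT and Uhrf1 KO in the H3K4me3 mESC count is thus the opposite of the one reported. Under the same setting, which leaves out the lower-scoring part of each list by construction, the week 1 counts were 21 and 21. With the start itself inside a region, the week 3 H3K4me3 counts were 26 in WT and 31 in Uhrf1 KO. With Uhrf1 KO H3K27me3 regions below the lowest WT mean count left out, 4 genes remained in mESC, of which 4 were shared with WT, and 1 at week 3, of which 1 was shared. With that minimum set per base in mESC, 6 remained, of which 6 were shared. With the start itself required inside a region, 1 gene had a Uhrf1 window. The median log2 ratio of Uhrf1 KO to WT H3K4me3 length in mESC ranged from 0.26 to 0.37 over its 3 alternatives. No paired analysis was possible because each group had 1 library. Precision is limited by 1 library per group and by 41 genes on fewer regions, which makes Wilson intervals too narrow where genes share a region.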

Other observations

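Factors known to keep imprints were themselves marked by H3K4me3 at 8 of 8 starts in both mESC lists (Zfp57, Trim28, Setdb1, Dnmt1, Uhrf1, Dppa3, Zfp445 and Ctcf). The background was 47.9% of all starts in WT and 42.9% in Uhrf1 KO, and 63.2% and 57.0% of protein-coding starts. At Dppa3, which protects maternal methylation in the early embryo, H3K4me3 was listed at week 1 in WT only and at week 3 in Uhrf1 KO only. Zfp445, a zinc finger gene of imprint maintenance, had H3K27me3 in the WT list and not in the Uhrf1 KO list at all 4 stages, and Dppa3 did so in mESC and at week 1. Of all starts with H3K27me3 in WT, Uhrf1 KO kept 14.8% in mESC and 72.5%, 44.3% and 48.6% at weeks 1, 2 and 3. H3K9me3 was called at Setdb1 and Zfp445 in both genotypes, at Ctcf in WT only and at Zfp57 and Dppa3 in Uhrf1 KO only (background 32.5% in WT and 41.2% in Uhrf1 KO).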
